A study of Mus musculus with 9 samples.

Results

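The genes of this report are 34 markers and transporters of the nephron segments, chosen by symbol as known kidney genes, with earlier results of these data known: 16 of the proximal tubule, 5 of the thick ascending limb, 2 of the distal convoluted tubule, 7 of the connecting tubule and principal cells and 4 of the intercalated cells. Of these, 29 had a row among the 31167 genes of the expression table, and the other 5 (Slc22a8, Kap, Aqp2, Slc4a1 and Foxi1) were not analysed here. A gene was called not detected when it was under 0.1 FPKM (a read density per length of exon and per size of library, so that genes of unlike length can be compared) in all 9 libraries. By that rule 16 genes were detected and 13 were not, and the 8 detected genes whose 9 libraries averaged 0.5 FPKM or more were tested.

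RNA was sequenced from mouse primary renal tubular epithelial cells (TECs) isolated from C57BL/6 kidney, in 3 groups of 3 libraries. Sham cells were the untreated control, H/R cells had 6 h of hypoxia at 1.0% oxygen in glucose-free medium followed by 18 h of reoxygenation, and EGR1OV cells had been transfected with a plasmid that carries Egr1 behind the CMV promoter, which is active in most cell types. No group with an empty plasmid was analysed here, so the effects of transfection and of Egr1 cannot be told apart. The sources used here do not say whether the 3 libraries of a group came from separate animals or cultures, so p-values measure only the spread between these libraries, which may be technical.

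Library depth, as recovered, was 16183617 to 18384022 reads per library. Egr1, an immediate early zinc finger transcription factor, was at 6.09 to 6.91 FPKM in Sham, 7.48 to 8.57 in H/R and 40.1 to 45.7 in EGR1OV, in the order the labels give. The signal of a single gene, Gm23935, ran from 1494 to 21700 FPKM, with low and high libraries in every group. The cultures also held transcripts of other cell types. The summed level of 11 leukocyte markers was 158.5 to 165.6 FPKM in Sham, 135.8 to 145 in H/R and 45.1 to 53.0 in EGR1OV. That of 8 endothelial markers was 12.6 to 13.4, 13.5 to 14.1 and 9.49 to 10.01 FPKM in the same order. The 8 fibroblast markers summed to 36.5 to 38.4, 44.4 to 45.1 and 41.5 to 46.1 FPKM, with 6 of the 8 detected and Dcn and Lum under 0.1 FPKM in every library. The 8 podocyte markers summed to 24.9 to 27.9, 23.5 to 25.9 and 24.4 to 25.5 FPKM, with the slit diaphragm gene Nphs1 not detected.

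Each segment of the nephron carries its own transporters. The proximal tubule takes back most filtered solute and protein through sodium-coupled carriers of its brush border and through the endocytic receptors megalin and cubilin. The thick ascending limb and the distal convoluted tubule reabsorb salt through related chloride cotransporters, and the collecting duct sets sodium, water and acid excretion through the epithelial sodium channel and aquaporins of principal cells and the pumps of intercalated cells. Primary tubular cells are known to lose part of this identity when grown on plastic.

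The detected genes were counted by segment, with as few as 2 genes in a segment, too few to rank the segments. The share of all genes that passed the 0.1 FPKM rule was not counted. Of the proximal tubule genes with a row, 7 of 14 were detected and 5 were tested. In the thick ascending limb 3 of 5 were detected, and in the distal convoluted tubule 1 of 2, none with a mean of 0.5 FPKM. In the connecting tubule and principal cells 5 of 6 were detected and 3 were tested, and neither of the 2 intercalated cell genes was detected. In a wider list given below, 7 of 12 intercalated cell genes were detected. The plot of all 29 genes by segment shows Ass1 and Hoxb7 far above the rest.

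**Figure D1:**
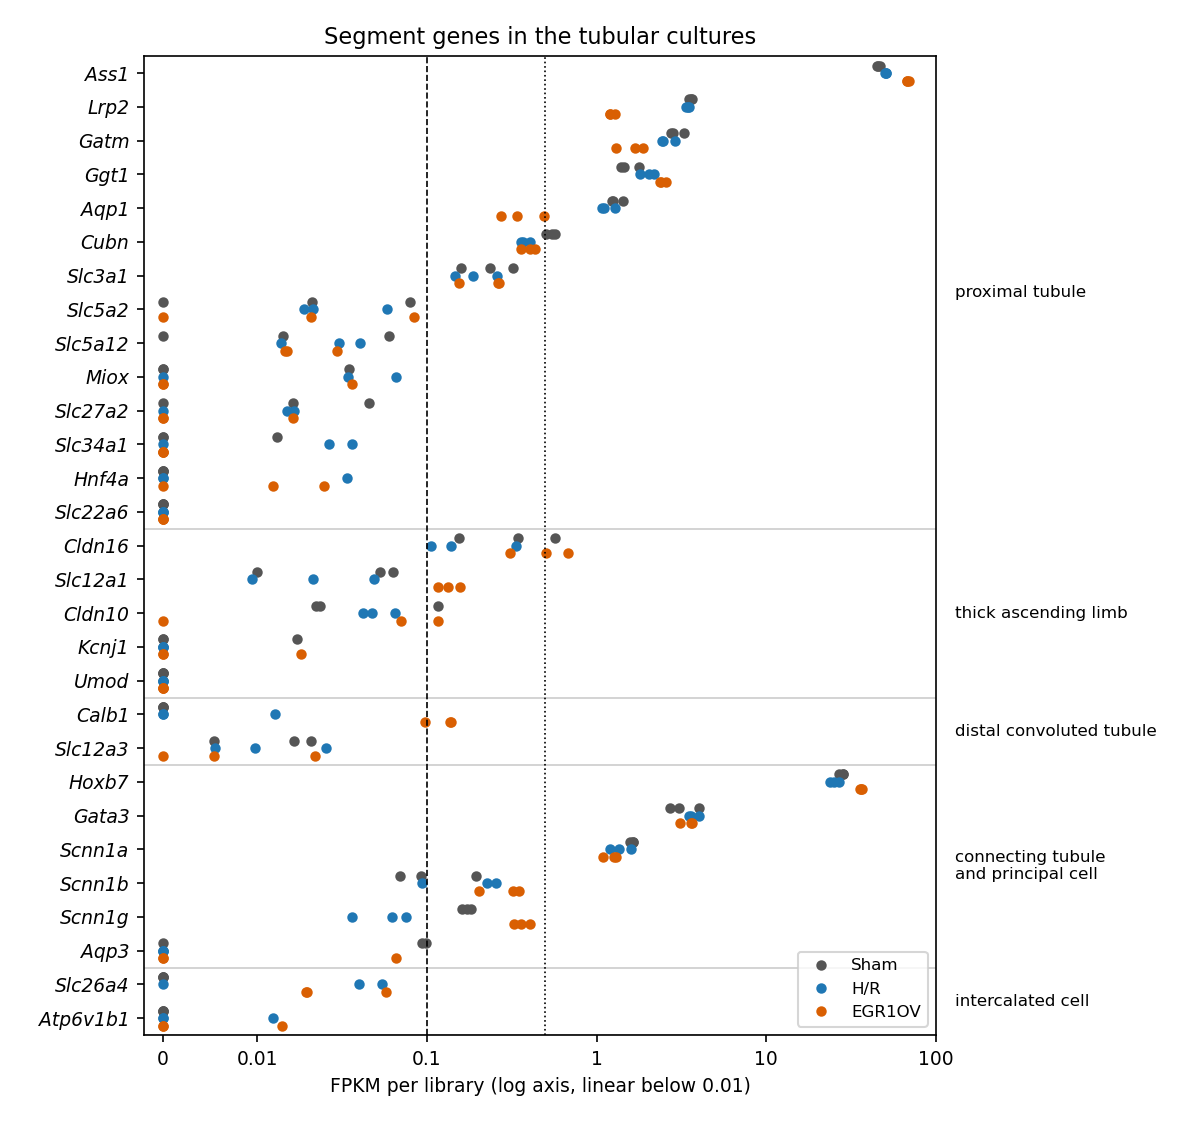
FPKM of the 29 segment genes in each of the 9 libraries (one point per library, colored by group, x axis logarithmic above 0.01 FPKM and linear below), arranged by segment. The dashed line marks 0.1 FPKM, under which 13 genes stayed in every library, and the dotted line 0.5 FPKM, the mean above which the 8 genes were tested.

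The undetected proximal tubule genes were mostly apical and basolateral carriers that serve as markers of the segment. Slc34a1, the sodium phosphate cotransporter, had 6 recovered reads over the 9 libraries, and Slc5a2, the sodium glucose cotransporter of the early segment, had 15. Slc5a12, a sodium-coupled lactate carrier, had 15 reads and Slc27a2, a fatty acid carrier and acyl-CoA synthetase, had 7. Miox, which opens the ring of myo-inositol, had 5 reads, and Hnf4a, a nuclear receptor that drives proximal tubule differentiation, had 6. The organic anion carrier Slc22a6 was listed at 0 in every library.

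In the distal nephron, Umod, the abundant uromodulin of the thick ascending limb, had 0 reads in every library and the potassium channel Kcnj1 had 2 reads in all. The thiazide-sensitive cotransporter Slc12a3 had 21 reads over the 9 libraries and at most 0.0254 FPKM. For the intercalated cells, the proton pump subunit Atp6v1b1 had 2 reads and the anion exchanger pendrin, Slc26a4, had 10. Aqp3, the basolateral water channel of principal cells, was just under the limit, at 0, 0.0941 and 0.0994 FPKM in Sham, 0 in the 3 H/R libraries and 0.0658, 0 and 0 in EGR1OV. Just inside it were Cldn10, a claudin of the thick ascending limb, with a highest library of 0.117 FPKM, and Calb1, with 0.139. For the 12 undetected genes with a recovered read count, 3 reads in a library, the limit that a count of 0 allows, came to 0.0147 to 0.112 FPKM depending on gene length. These floors cover counting error only.

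The cells nevertheless carried the epithelial and renal lineage genes. The keratin Krt8 was at 581 to 1026 FPKM and Krt18 at 398.3 to 695.7. Of 18 tubule transcription factors 17 were detected, among them Emx2 at 20.9 to 27.5 FPKM and Pax2 at 13.7 to 20.4. The label of a tubular epithelium thus met its general markers, while the undetected proximal tubule carriers named above were at or near 0. Other proximal tubule carriers were not: Slc4a4, Slc7a7 and Slc7a8, of a wider list given below, each averaged 0.5 FPKM or more.

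Changes were tested with limma on log2(FPKM + 1) over 13985 genes, with adjustment over all of them. A call needed an adjusted p under 0.05 together with 1.3-fold or more in EGR1OV, whether set against Sham or H/R, or 1.2-fold or more in H/R set against Sham. Changes on this scale understate those of low genes. In EGR1OV against Sham 5 of the 8 tested segment genes were called, 2 higher and 3 lower, all of the proximal tubule, beside 16.4% of all genes tested (9.87% higher and 6.51% lower). After H/R 0 of 8 were called by limma, beside 4.25% of all genes (1.6% higher and 2.65% lower). Of the 8, 3 (Ass1, Ggt1 and Hoxb7) had an unadjusted p under 0.05 after H/R, Ass1 alone kept an adjusted p under 0.05 at a change below the fold threshold, and limma voom on recovered reads also called 0 of these 8. In EGR1OV against H/R 5 of 8 were called, 2 higher and 3 lower, beside 18.9% (11.9% higher and 6.94% lower). The median change of the 8 genes was -0.08 in EGR1OV against Sham, -0.07 after H/R and -0.09 between the treated groups, beside 0.02, -0.03 and 0.05 over all genes. The first 2 of these comparisons share the Sham libraries, the first and last share the EGR1OV libraries and the last 2 the H/R libraries.

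Counted by the libraries alone, the 3 EGR1OV values lay outside the 3 Sham values in 7 of the 8 genes, 3 higher and 4 lower, where 31% of all genes tested lay wholly higher and 24.6% wholly lower. After H/R 2 genes lay wholly above Sham and 1 wholly below, where the shares of all genes were 11.8% and 21.8%. Between EGR1OV and H/R 3 lay wholly higher and 3 wholly lower, where the shares were 36.6% and 22%. For a single gene with 3 libraries against 3, the exact two-sided permutation test cannot go below 0.1. The plot of the tested genes by library shows every value.

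**Figure D2:**
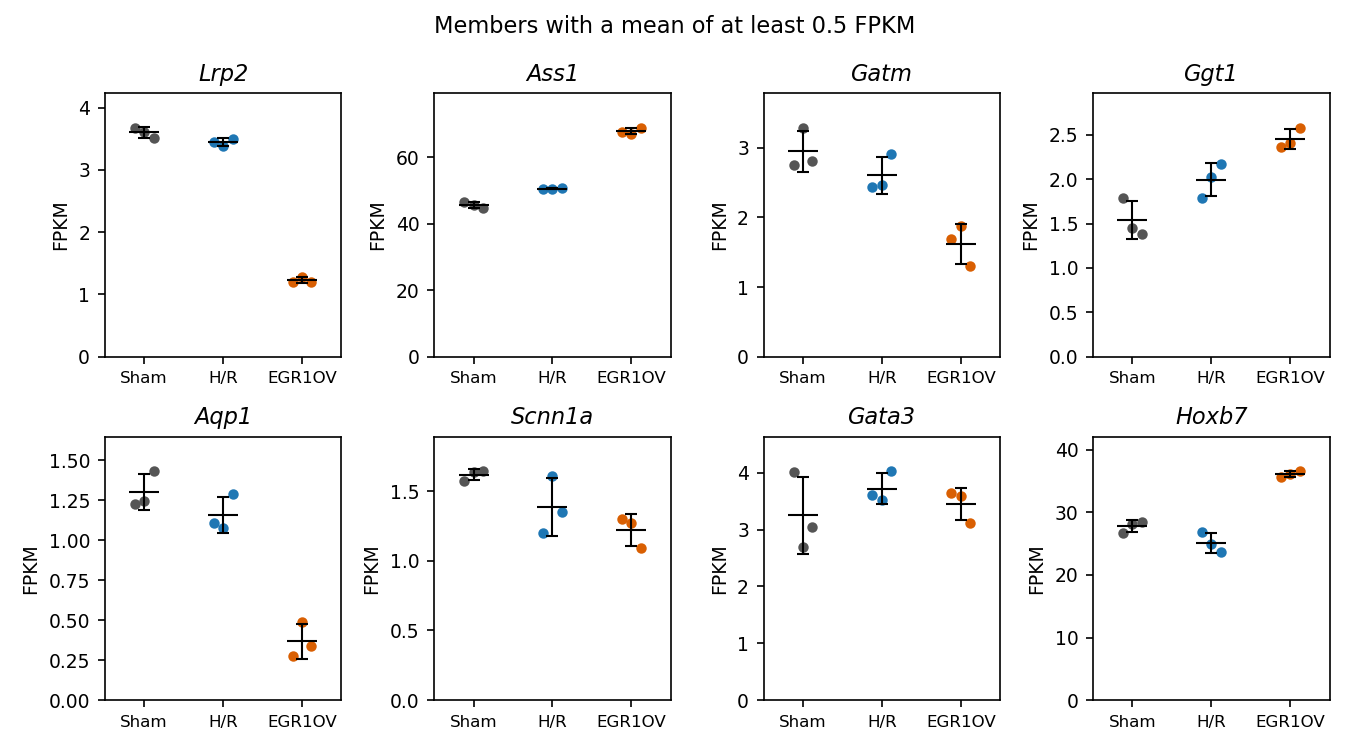
FPKM of the 8 tested segment genes in the 3 libraries of each group (points), with the mean and SD (bars) and y axes from 0. The EGR1OV libraries of Lrp2, Aqp1 and Gatm sit below all Sham and H/R libraries, those of Ass1, Ggt1 and Hoxb7 above them, and the Gata3 groups overlap.

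Among the endocytic receptors, Lrp2 (megalin, chromosome 2, 69424340 to 69586065) was at 3.67, 3.61 and 3.51 FPKM in Sham, 3.45, 3.38 and 3.50 in H/R and 1.19, 1.28 and 1.2 in EGR1OV. All EGR1OV libraries lay far below the others, and the H/R values lay just under the Sham values. The mean fell from 3.60 ± 0.082 FPKM in Sham to 1.22 ± 0.048 in EGR1OV (SD, n = 3 each), a log2 change of -1.05 (SE 0.045, limma adjusted p 1.01e-07) and a ratio of means of 0.340. After H/R the change was -0.05 (limma adjusted p 0.524).

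Cubn, the cubilin that works with megalin, was under the test filter, with 134, 131 and 141 recovered reads in Sham, 89, 99 and 108 in H/R and 108, 87 and 102 in EGR1OV. All Sham counts lay above those of both treated groups. The ratio of the summed reads, scaled by depth, was 0.740 in EGR1OV (95% exact counting interval 0.635 to 0.862) and 0.702 after H/R (0.603 to 0.818). Cubn shares exon sequence with Gm13270 on the opposite strand, and since no source used here gives the strand setting of the counting, their reads cannot be told apart. Dab2, a clathrin adaptor that binds the tail of megalin and is also expressed in macrophages, averaged 11.3 ± 0.53 FPKM in Sham, 12.6 ± 0.53 after H/R and 7.21 ± 0.30 in EGR1OV (n = 3 each, SD), a log2 change of -0.58 in EGR1OV (limma adjusted p 8.3e-06).

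The water channel Aqp1 (chromosome 6, 55336432 to 55348555), which carries water across the proximal tubule and descending limb, was at 1.23, 1.24 and 1.43 FPKM in Sham, 1.11, 1.08 and 1.29 in H/R and 0.275, 0.489 and 0.339 in EGR1OV. The EGR1OV libraries lay apart from the rest, and the H/R and Sham libraries overlapped. The change in EGR1OV was -0.75 (SE 0.083, limma adjusted p 7.45e-05), a ratio of means of 0.283, while after H/R it was -0.09 (limma adjusted p 0.511). Aqp1 is also made by endothelium, whose summed markers were lower in EGR1OV as given above. Of 7 endothelial markers tested 1 was called there, Pecam1, at -0.46 (limma adjusted p 0.000442), a share of 14.3% beside 16.4% of all genes. The change was above 0 in 0 of the 7. Against H/R 3 of the 7 (42.9%) were called, all lower, where 6.94% of all genes were called lower. The leukocyte markers moved too, with 9 of 10 tested markers called lower in EGR1OV, where 6.51% of all genes were, and 1 higher, Cd14. After H/R, where Cubn was also lower, 2 of the 10 were called, both lower, where 2.65% of all genes were called lower. The part of either list in the result was not tested, and in bulk RNA fewer cells of a type and less RNA per cell cannot be told apart.

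Of the metabolic enzymes of the proximal tubule, 2 rose and 1 fell in EGR1OV. Ass1 (chromosome 2, 31470207 to 31520672), argininosuccinate synthase, which makes the precursor of arginine, was the most abundant of all 29 genes. Its level was 46.5, 45.8 and 44.8 FPKM in Sham, 50.5, 50.4 and 50.8 in H/R and 67.6, 67.1 and 68.9 in EGR1OV. The 3 groups did not overlap and lay in that order. The change was +0.56 with EGR1OV (SE 0.023, limma adjusted p 7.78e-08), a ratio of means of 1.49. After H/R it was +0.14 (SE 0.023, limma adjusted p 0.00688), a ratio of 1.11, which is under the 1.2-fold threshold.

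Ggt1 (chromosome 10, 75561604 to 75586200), the brush border enzyme that breaks down glutathione, was at 1.78, 1.45 and 1.39 FPKM in Sham, 1.79, 2.03 and 2.17 in H/R and 2.37, 2.40 and 2.58 in EGR1OV. The highest Sham library nearly touched the lowest H/R library, and the EGR1OV libraries were above both groups. The change was +0.45 with EGR1OV (SE 0.076, limma adjusted p 0.00113), against +0.24 after H/R (limma adjusted p 0.0743). Without the highest Sham library, replicate 1, the change after H/R was +0.31 (limma adjusted p 0.0455), which is a call.

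Gatm (chromosome 2, 122594467 to 122611303), which makes the creatine precursor guanidinoacetate, was at 2.76, 3.29 and 2.81 FPKM in Sham, 2.43, 2.47 and 2.91 in H/R and 1.69, 1.88 and 1.31 in EGR1OV. The EGR1OV libraries were below all others, and Sham and H/R overlapped. The change in EGR1OV was -0.59 (SE 0.095, limma adjusted p 0.000772), against -0.13 after H/R (limma adjusted p 0.405). Slc3a1, the heavy subunit of the cystine carrier, was at 0.158, 0.323 and 0.236 FPKM in Sham, 0.188, 0.259 and 0.147 in H/R and 0.261, 0.265 and 0.154 in EGR1OV. Its groups overlapped throughout, and it shares exon sequence with Prepl on the opposite strand.

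The promoters of 4 called genes, 1 that rose and 3 that fell, are shown so that their sequence can be read beside these values. Each window runs from 250 bases before to 50 bases after the RefSeq start, 5′ to 3′ along the gene, on build GRCm38.p6. Capitals mark ACGTG on either strand, one form of the core that hypoxia-inducible factors bind. The other form, GCGTG, was not searched as such a core. The first is chr2:31470020-31470319 on the plus strand, the next chr2:122611228-122611527 on the minus strand, the third chr2:69585980-69586279 on the minus strand and the last chr6:55336049-55336348 on the plus strand.
Ass1: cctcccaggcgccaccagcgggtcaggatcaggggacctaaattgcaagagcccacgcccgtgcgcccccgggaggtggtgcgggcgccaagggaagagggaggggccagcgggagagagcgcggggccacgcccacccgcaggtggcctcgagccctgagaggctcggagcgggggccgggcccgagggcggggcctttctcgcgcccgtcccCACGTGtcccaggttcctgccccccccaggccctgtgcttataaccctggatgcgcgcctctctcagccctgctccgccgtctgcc
Gatm: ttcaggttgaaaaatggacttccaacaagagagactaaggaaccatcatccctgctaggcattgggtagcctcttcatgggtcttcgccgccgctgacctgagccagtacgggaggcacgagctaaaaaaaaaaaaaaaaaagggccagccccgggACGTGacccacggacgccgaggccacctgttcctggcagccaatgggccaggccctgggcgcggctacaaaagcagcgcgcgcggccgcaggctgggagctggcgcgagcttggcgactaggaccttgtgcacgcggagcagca
Lrp2: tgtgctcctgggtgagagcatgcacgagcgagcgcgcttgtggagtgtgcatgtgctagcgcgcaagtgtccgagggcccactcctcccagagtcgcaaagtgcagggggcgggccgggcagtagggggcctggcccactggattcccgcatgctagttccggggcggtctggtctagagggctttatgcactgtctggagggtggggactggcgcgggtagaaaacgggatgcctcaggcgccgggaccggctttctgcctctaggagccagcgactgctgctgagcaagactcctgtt
Aqp1: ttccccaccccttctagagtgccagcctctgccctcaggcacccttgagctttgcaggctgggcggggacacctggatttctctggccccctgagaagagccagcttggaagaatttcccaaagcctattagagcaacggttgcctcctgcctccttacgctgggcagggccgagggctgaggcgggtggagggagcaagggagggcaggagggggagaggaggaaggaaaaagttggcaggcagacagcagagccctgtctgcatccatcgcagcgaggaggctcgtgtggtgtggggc

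Promoter windows were given for 6 of the 8 tested genes, 9 windows in all, since Ggt1 had 4. ACGTG was in 4 of these 9 windows (Ass1, Gatm and 2 of Ggt1) and in 19.62% of all 32851 windows. In the Ass1 window and in the Ggt1 window at chr10:75568412-75568711 it lies within CACGTG. That stretch holds ACGTG on both strands and is also the E-box that basic helix-loop-helix factors bind. The consensus EGR site was searched on both strands in the forms GCGTGGGCG and GCGGGGGCG. They were in 0.61% and 2.91% of all windows and in 0 of the 9, too few windows to show a lack of sites at such shares. The EGR1 site that the paper tested in the Sox9 promoter differs from both forms and was not searched. A match is letters only, and no match says only that these letters are not in these windows.

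In the connecting tubule and principal cells, Hoxb7 (chromosome 11, 96286623 to 96290162), a homeobox gene of the ureteric bud lineage that forms the collecting duct, was at 26.7, 28.2 and 28.5 FPKM in Sham, 26.8, 25.0 and 23.6 in H/R and 35.6, 36.1 and 36.5 in EGR1OV. The EGR1OV libraries were above all others, and the H/R and Sham libraries overlapped. The change in EGR1OV against Sham was +0.37 (SE 0.045, limma adjusted p 0.000136), just under the 1.3-fold threshold. Against H/R it was +0.51 (limma adjusted p 1.4e-05), which was called. Without Sham replicate 3 the change against Sham was 0.38 (limma adjusted p 0.000525) and also a call.

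Gata3 (chromosome 2, 9857078 to 9890034), a zinc finger factor of the ureteric bud and collecting duct, was at 4.01, 2.70 and 3.05 FPKM in Sham, 3.60, 3.51 and 4.03 in H/R and 3.65, 3.58 and 3.12 in EGR1OV. The Sham libraries overlapped with both other groups, and neither change passed the test, at +0.08 in EGR1OV (limma adjusted p 0.593) and +0.16 after H/R (limma adjusted p 0.364). Gata3 shares exon sequence with 9230102O04Rik on its own strand and Gm13256 on the other, so its reads are uncertain.

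The epithelial sodium channel, through which principal cells take up sodium, is built of 3 subunits. Scnn1a, the alpha subunit (chromosome 6, 125320659 to 125344943), was at 1.57, 1.64 and 1.64 FPKM in Sham, 1.2, 1.61 and 1.35 in H/R and 1.3, 1.27 and 1.09 in EGR1OV. The EGR1OV libraries lay below Sham and overlapped with H/R. The change was -0.24 with EGR1OV (SE 0.076, limma adjusted p 0.0291), below the fold threshold with a pseudocount of 1 and past it with 0.1, at -0.38. After H/R it was -0.14 (limma adjusted p 0.274).

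**Figure D3:**
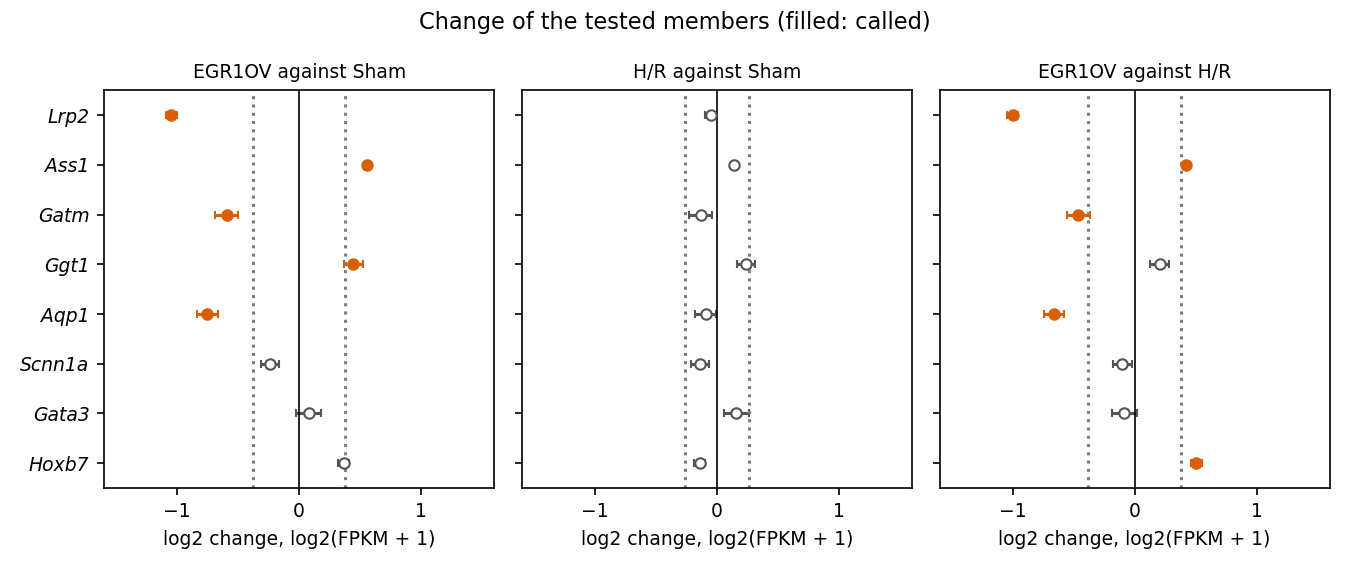
Change of the 8 tested segment genes on the log2(FPKM + 1) scale in the 3 comparisons (points, with SE), with dotted lines at the fold thresholds and filled points for called genes. Calls lie in EGR1OV against Sham and against H/R, with Lrp2 lowest in both at -1.05 and -1.0, and no point is filled for H/R against Sham.

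The other subunits were under the test filter. Scnn1g, the gamma subunit, had 9, 9 and 8 recovered reads in Sham, 3, 2 and 4 in H/R and 20, 16 and 18 in EGR1OV. No library of one group fell within another. The depth-scaled ratio was 2.1 in EGR1OV against Sham (95% exact counting interval 1.29 to 3.50) and 0.333 after H/R (0.137 to 0.734). Scnn1b, the beta subunit, had 3, 9 and 4 reads in Sham, 4, 11 and 12 in H/R and 14, 15 and 9 in EGR1OV. Its EGR1OV libraries reached down to the highest Sham library, with a ratio of 2.40 (1.31 to 4.62) in EGR1OV and 1.63 (0.845 to 3.23) after H/R. So the alpha subunit was lower and the gamma subunit higher in every EGR1OV library than in every Sham library.

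Among the salt carriers of the thick ascending limb, Slc12a1, the cotransporter that loop diuretics block, had 5, 1 and 6 reads in Sham, 2, 1 and 5 in H/R and 15, 11 and 13 in EGR1OV. The EGR1OV libraries were above all others, with a ratio of 3.29 against Sham (95% exact counting interval 1.69 to 6.90), and after H/R the ratio was 0.642 (0.228 to 1.71). With at most 6 reads in any Sham or H/R library, Slc12a1 may have been detected only through EGR1OV, so its values are a description. Cldn16, a claudin of the paracellular magnesium path, had 21 reads in Sham, 12 after H/R and 29 in EGR1OV over the 3 libraries of each group. Its libraries overlapped, and the ratio in EGR1OV was 1.40 (0.770 to 2.58). Cldn10 had 7, 7 and 8 reads in the same order.

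Calb1, the calbindin that buffers calcium in the distal convoluted and connecting tubule, had 0 reads in the 3 Sham libraries, 1, 0 and 0 in H/R and 11, 11 and 8 in EGR1OV. It was thus read in every EGR1OV library and in 1 library of the other groups. Calb1 was detected only through the EGR1OV libraries, so its values are a description. Taking the floor of 3 reads over the Sham group and the EGR1OV reads as counted, it was at least 10.1-fold higher in EGR1OV than in Sham. Against the 1 read of H/R the ratio was 31.5, with a 95% exact counting interval from 5.24 to 1290. The plot of recovered reads shows how few reads these genes had.

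**Figure D4:**
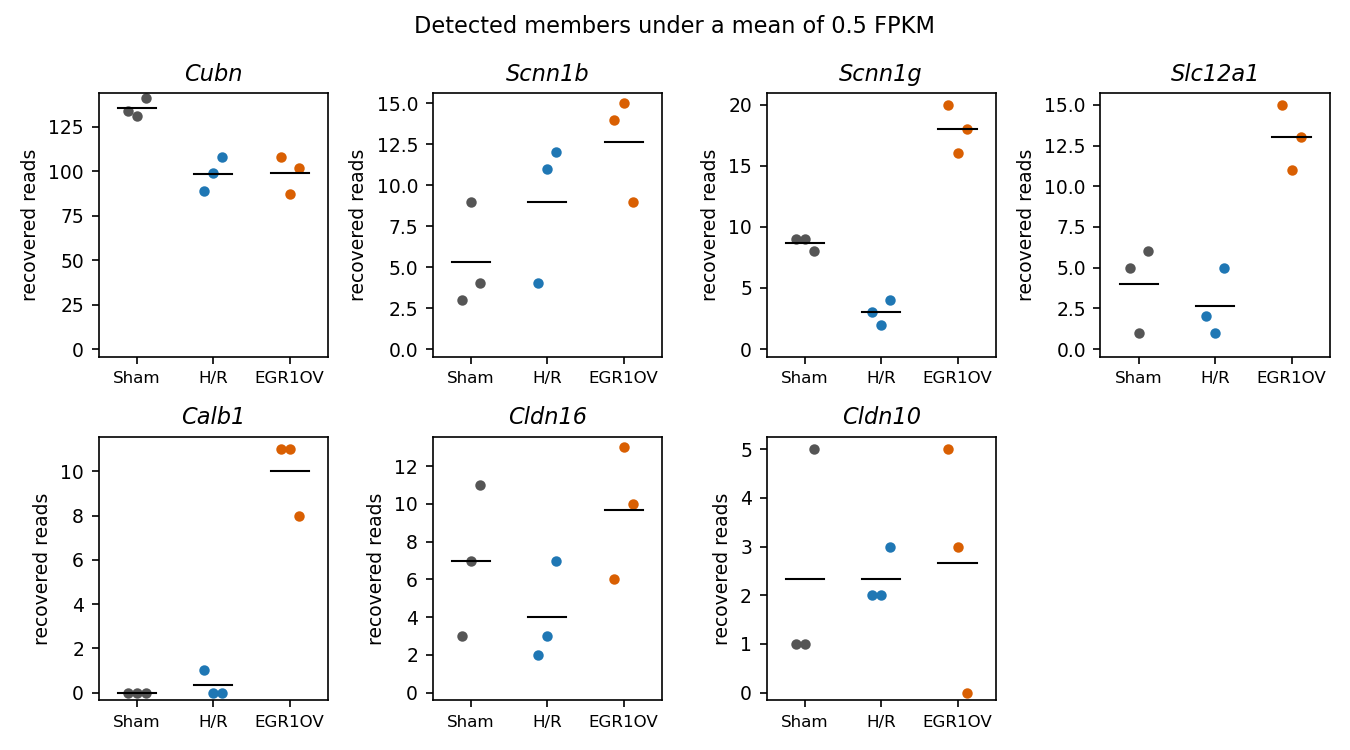
Recovered reads per library (points) and group means (lines) of 7 detected segment genes whose mean was under 0.5 FPKM, on linear axes from 0. EGR1OV libraries of Scnn1g, Slc12a1 and Calb1 lie above all others, and the Sham libraries of Cubn lie above both treated groups.

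These low genes were also taken through limma voom on recovered reads, for every gene with at least 10 reads over the 9 libraries, an alternative chosen after seeing the data. It called 18.2% of genes in EGR1OV against Sham, 4.79% after H/R and 21.3% between the treated groups. Of the segment genes under the filter, Cubn (-0.43, limma adjusted p 0.00719) was called lower in EGR1OV against Sham. Slc12a1 (1.87, limma adjusted p 0.0082), Scnn1g (1.03, limma adjusted p 0.0255) and Scnn1b (1.28, limma adjusted p 0.0459) were called higher. Slc12a1 had 12 reads in Sham and so passed the read filter without EGR1OV. Its detection by FPKM may still rest on EGR1OV, as given above, so its call is a description. Calb1 was called too, but it passed the read filter only through EGR1OV. After H/R Cubn was called, at -0.51 (limma adjusted p 0.00778), while Scnn1g was at -1.49 (limma adjusted p 0.0747).

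Between the treated groups, the difference of the effects was largest for Lrp2, at -1.0 in EGR1OV against H/R (SE 0.045, limma adjusted p 1.37e-07). Aqp1 differed by -0.66 (limma adjusted p 0.000152) and Gatm by -0.46 (limma adjusted p 0.00297), both lower in EGR1OV. Ass1 was higher in EGR1OV by 0.42 (limma adjusted p 6.12e-07), and Ggt1, at 0.21 (limma adjusted p 0.0477), was below the fold threshold. Under median-ratio and quantile scaling the Ass1 difference was 0.35 and 0.34, also below it. The Gatm difference without EGR1OV replicate 3, its lowest library, was -0.37, under the threshold. Scnn1a and Gata3 did not pass the test, at -0.10 (limma adjusted p 0.308) and -0.08 (limma adjusted p 0.546).

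A wider list of 82 segment genes was read beside these 34. It had 75 genes with a row, of which 45 were detected and 16 tested, with 18 of 36 detected in the proximal tubule, 6 of 9 in the thick ascending limb, 8 of 9 in the distal convoluted tubule, 6 of 9 in the connecting tubule and principal cells and 7 of 12 in the intercalated cells. In EGR1OV against Sham 7 of 16 were called, 4 higher and 3 lower, beside 16.4% of all genes. After H/R 5 of 16 were called, 3 higher and 2 lower, beside 4.25%, and between the treated groups 7 of 16, 2 higher and 5 lower, beside 18.9%. The count after H/R was 3 without Sham replicate 1, without Sham replicate 3 or without any 1 of the H/R replicates. In all of these but the one without H/R replicate 2, the 3 calls were all higher, so the 2 lower calls were lost.

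In the proximal tubule part of that list, 2 of 6 tested genes were called in EGR1OV against Sham, both lower, beside 6.51% of all genes. They were Dab2 and Slc7a8, a basolateral neutral amino acid carrier, at -0.42 (limma adjusted p 0.00102). Mme, the brush border peptidase neprilysin, was called lower against H/R, at -0.43 (limma adjusted p 0.000437). Slc7a7, a basolateral carrier of dibasic amino acids, and Slc4a4, the basolateral bicarbonate exit, did not pass the test in EGR1OV, at -0.14 (limma adjusted p 0.136) and -0.04 (limma adjusted p 0.65). After H/R Dab2 was at +0.15 (limma adjusted p 0.0732) and Mme at +0.19 (limma adjusted p 0.0838), neither past the threshold.

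The distal genes of the list included several that moved after both treatments. Hsd11b2, the enzyme that shields the mineralocorticoid receptor of principal cells from glucocorticoids, was at 16.1, 16.7 and 15.3 FPKM in Sham, 25.4, 25.3 and 23.4 in H/R and 30.3, 30.4 and 30.1 in EGR1OV. The 3 groups did not overlap, and the change was +0.88 in EGR1OV (limma adjusted p 1.7e-07) and +0.59 after H/R (limma adjusted p 0.000115). Trpm6, the magnesium channel of the distal convoluted tubule, averaged 2.11 ± 0.22 FPKM in Sham, 3.12 ± 0.19 after H/R and 4.80 ± 0.21 in EGR1OV (n = 3 each, SD). It changed by +0.90 in EGR1OV (limma adjusted p 3.38e-06) and by +0.41 after H/R (limma adjusted p 0.00582). Car2, the cytosolic carbonic anhydrase of intercalated and other tubule cells, changed by +0.39 (limma adjusted p 4.6e-05) and +0.28 (limma adjusted p 0.00354).

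Kcnj16, a subunit of the basolateral potassium channel of the distal nephron, was at 2.69, 2.55 and 3.06 FPKM in Sham, 1.81, 2.29 and 1.83 in H/R and 6.09, 6.20 and 5.95 in EGR1OV. It lay wholly lower after H/R, at -0.34 (limma adjusted p 0.021), a call lost without single libraries as given above, and wholly higher in EGR1OV, at +0.91 (limma adjusted p 9.2e-06). Wnk4, a kinase that acts on the thiazide-sensitive cotransporter, was called lower after H/R at -0.28 (limma adjusted p 0.026), a call lost in the same way. In EGR1OV it was at +0.07 (limma adjusted p 0.39). Its relative Wnk1 was at 22.7 to 26.2 FPKM and Slc8a1, the sodium calcium exchanger, at 1.39 to 1.84, and neither was called in EGR1OV against Sham or after H/R. Kcnj10, another potassium channel gene of the list, was under the filter and was picked after its values were seen. Voom on recovered reads called it lower in EGR1OV, at -2.62 against Sham (limma adjusted p 0.000806) and -2.73 against H/R (limma adjusted p 0.000404). The rise of Kcnj16 thus does not stand for both genes.

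Ppp1r1a, a phosphatase inhibitor of the thick ascending limb, was called lower in EGR1OV at -0.51 (limma adjusted p 0.014). Egf, a growth factor made in that segment, was at 0.0699 to 0.180 FPKM. Sgk1, the kinase that keeps the sodium channel at the membrane, was at 17.0 to 23.0 FPKM and was not called in any comparison. Dmrt2 of the intercalated cells was at 0.206 to 0.527 FPKM, under the filter. Atp6v0d2, a proton pump subunit of those cells also under the filter, was at 0.336, 0.465 and 0.491 FPKM in Sham, 0.341, 0.541 and 0.249 in H/R and 0.0665, 0.0451 and 0.109 in EGR1OV. Its EGR1OV libraries were below all others. Voom on recovered reads called it lower against Sham, at -2.43 (limma adjusted p 0.000418), while Car2 was higher. Of 10 tested leukocyte markers 9 were called lower and 1 higher in EGR1OV, as given above, and their part in this fall was not tested.

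**Figure D5:**
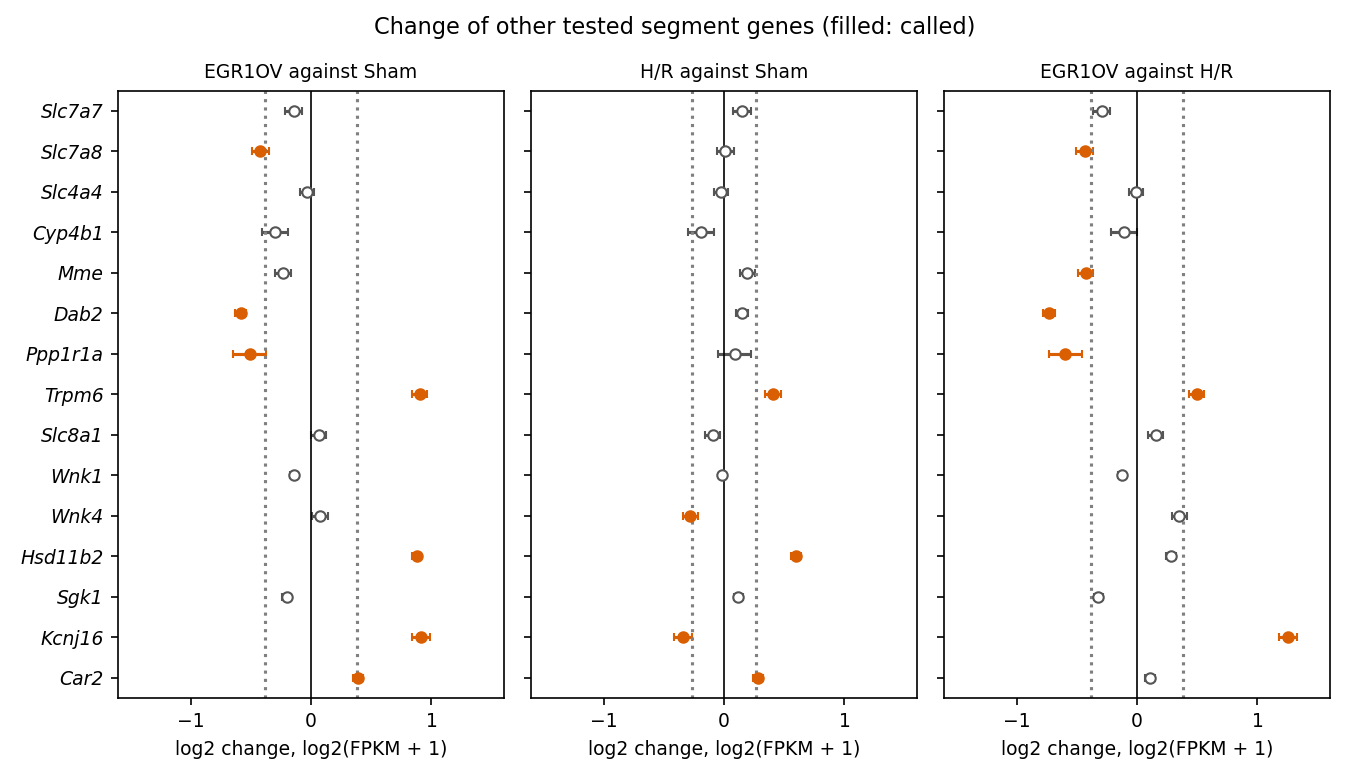
Change of 15 of the 16 tested genes of the wider segment list on the log2(FPKM + 1) scale in the 3 comparisons (points, with SE), ordered by segment from the proximal tubule at the top, with dotted lines at the fold thresholds and filled points for called genes. Dab2 and Slc7a8 lie lower in EGR1OV, Hsd11b2, Trpm6 and Car2 lie higher against Sham in both treated groups, and Kcnj16 lies lower after H/R and higher in EGR1OV.

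Of 13 tubule transcription factors tested, 2 (15.4%) were called in EGR1OV against Sham, near the 16.4% of all genes. Both were lower, Lhx1 at -0.52 (limma adjusted p 3.39e-05) and Tfap2b at -0.40 (limma adjusted p 0.00839). Pax2 was at +0.36 (limma adjusted p 0.000431) and Emx2 at -0.19 (limma adjusted p 0.00787), both below the fold threshold against Sham. Against H/R Pax2 was called, at +0.39 (limma adjusted p 0.000223). After H/R 1 of 13 (7.69%) was called, beside 4.25% of all genes: Maf, at +0.31 (limma adjusted p 0.0154). Of the 9 general epithelial genes tested, 4 (44.4%) were called in EGR1OV against Sham, beside 16.4% of all genes, with Krt19 at -0.92, Krt18 at -0.73 and Krt8 at -0.71 lower (highest limma adjusted p 8.77e-07) and Epcam at +0.39 higher (limma adjusted p 9.13e-06). Epcam was also the single epithelial call after H/R, 11.1% of the 9 beside 4.25%, at +0.33 (limma adjusted p 0.0006).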

How the data were processed

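The authors deposited one table of FPKM values for 9 libraries of mouse renal tubular epithelial cells, with no replicates pooled. The submitters' processing notes name HISAT2 2.1.0, Bowtie2 2.2.3, TopHat2 and mm9, but 94.6% of gene positions equal those of GENCODE M21 (GRCm38), so positions are given as in the table. Whole reads were recovered from the FPKM steps with GENCODE exon lengths: 94.0% of the values checked were whole within 0.02 reads. Groups came from the sample titles.

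The members, gene lists and rules were chosen with earlier results of these data known. Every tested member was named. Of the wider lists, the text names up to 3 called genes with the largest change per list and comparison, and the 3 with the highest mean. Some genes that this rule picks are not reported here.

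Genes that averaged 0.5 FPKM or more were tested as log2(FPKM + 1) with limma 3.58.1 (R 4.3.3; lmFit, then eBayes with trend, two-sided, Benjamini-Hochberg) in one fit of all 9 libraries, at the thresholds given in the report. Ratios of recovered reads carry exact binomial intervals on reads summed over the 3 libraries of a group. These intervals cover counting error only and leave out the spread between libraries. Over the genes tested, libraries of one group differed by 2.07 to 4.06 times counting error (chi-square over its degrees of freedom). The intervals are thus too narrow for a difference between groups. PCR copies were also not marked by molecular identifiers. Code was tested on simulated data. The alternatives were a pseudocount of 0.1, 2 other filters, median-ratio and quantile scaling, no trend, limma voom on recovered reads, the replicate block, only the groups compared, other fold thresholds and each library left out in turn. Promoter windows were from RefSeq. Intervals came from scipy 1.17.1 and figures from matplotlib 3.10.9 (Python 3.11.15).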

Additional observations from a re-analysis of the deposited data

Results flagged for a closer look

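The effect of EGR1OV and the effect of H/R, both against the same Sham libraries, differed for 5 segment genes by limma's test of EGR1OV against H/R, which is the test of that difference itself. On the log2(FPKM + 1) scale the difference was -1.0 for Lrp2, -0.66 for Aqp1 and -0.46 for Gatm, each lower in EGR1OV. It was 0.42 for Ass1 and 0.51 for Hoxb7, each higher in EGR1OV. The adjusted p-values stand in the report. All 3 EGR1OV libraries lay outside the 3 H/R libraries in each of these 5 genes, where 36.6% of all genes tested lay wholly higher and 22% wholly lower. The 5 genes were picked by the test on these same libraries, so this separation adds no support.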

How the results depend on the processing

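Of the 438 recomputed changes of the 8 tested segment genes, 429 kept their direction and their side of the thresholds, 5 passed them newly, 3 no longer passed and 1 changed sign. Part of this was fixed in advance. The other filters, no trend, the replicate block and only the groups compared cannot move a log2 change, nor can leaving out a library of a group not compared. In those alternatives only the p-value could move. The sign changed for Gata3 in EGR1OV against Sham without Sham replicate 2 (-0.018; leaving out each library gave -0.018 to 0.201), a change that was called under no alternative. Scnn1a in EGR1OV against Sham passed with a pseudocount of 0.1 (-0.38) and under both voom fits (-0.41). Ass1 in EGR1OV against H/R no longer passed the fold threshold under median-ratio (0.35) and quantile scaling (0.34).

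Counts of called segment genes are given as EGR1OV against Sham, H/R against Sham and EGR1OV against H/R, beside 5, 0 and 5. With a mean of at least 5 FPKM, which left 2 genes, they were 1, 0 and 2. At 2-fold they were 1, 0 and 0, and with no fold threshold H/R gave 1. Voom with 10 or more reads tested 20 segment genes, not 8, and gave 11, 1 and 8, beside 18.2%, 4.79% and 21.3% of all genes. Without Calb1, which passed that filter only through EGR1OV, it gave 10, 1 and 7. The counts for EGR1OV still hold Slc12a1, whose values are a description. Leaving out each library gave 5 to 6, 0 to 1 and 4 to 5. For the wider list, beside 7, 5 and 7 of 16, the counts were 3, 2 and 1 of 6 at a mean of at least 5 FPKM. They were 0, 0 and 1 of 16 at 2-fold and 11, 5 and 12 of 16 with no fold threshold. Voom with 10 or more reads tested 47 of the wider list and gave 12, 6 and 12, beside the shares of all genes just given. The share of all genes called was counted only for the main fit and for this voom fit. After H/R the wider list gave 3 with no filter and 3 with only the groups compared. It also gave 3 without Sham replicate 1, Sham replicate 3 or any 1 of the H/R replicates, and leaving out each library gave 6 to 8, 3 to 5 and 6 to 7.

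Equal replicate numbers recur in the 3 groups, but the correlation of deviations between equal numbers was -0.021 to 0.062, over 0.1 in 0 of 9 pairs, so the numbers were not taken to pair the libraries. With the replicate block the counts were 5, 0 and 5 for the segment genes and 7, 4 and 6 for the wider list. Depth limits the 13 undetected genes and those read through few reads. Scaling moved the median of all genes by less than 0.1.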
